A study of Mus musculus with 27 samples.

Results

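The 9 transcription factors studied here mark the change of endocardium into cushion mesenchyme and were followed in mouse hearts that carried deletions of the long noncoding RNA Hand2os1. They are Twist1, Snai1, Snai2, Msx1, Msx2, Sox9, Prrx1, Zeb1 and Zeb2. They were taken by name, and all 9 were found among the 24025 genes of the bulk table and among the 19010 genes of the single-cell table. Allele F removes the full-length Hand2os1 gene and allele D its 3′ distal portion. All animals were C57BL/6. The bulk data were 25 polyA RNA-seq libraries, namely E11.5 whole heart from F/+ (3 libraries) and F/F (3), E16.5 ventricle from F/+ (3) and F/F (3), and isolated cardiomyocytes at an age of 8 weeks, of which 5 libraries were +/+, 2 were D/+ and 6 were D/D. Controls of the embryonic bulk comparisons thus carried 1 copy of the deletion. The single-cell data were 1 droplet library of +/+ and 1 of F/F, each from 6 pooled E11.5 hearts out of heterozygote intercrosses, sorted for live cells. With 1 library a genotype, the single-cell difference between genotypes has no replicate, and every interval given for it covers counting error only.

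During the transition, endocardial cells over the atrioventricular canal and outflow tract loosen their junctions, enter the cushion matrix and turn into the mesenchyme from which valves and septa form, under BMP, TGFβ and Notch signals. Twist1 is a basic helix-loop-helix factor of the family that also holds Hand2. Snai1 and Snai2 are zinc-finger repressors of cadherin genes, and Zeb1 and Zeb2 are zinc-finger homeodomain repressors that bind the same short E-box. Msx1 and Msx2 are homeobox targets of BMP signalling, Sox9 is an HMG-box factor needed for expansion of the cushion mesenchyme, and Prrx1 is a homeobox factor of mesenchyme.

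The deleted gene was looked at first. In the bulk hearts Hand2os1 was listed at 0 in all 6 libraries of E11.5, so the labels of that stage could not be checked with it. It was at 0.37 to 1.4 FPKM (read fragments scaled to transcript length and library size) in F/+ at E16.5 and listed at 0 in the 3 F/F libraries. At 8 weeks 1 of 5 libraries labelled +/+ (replicate 5) and 3 of 6 labelled D/D were listed at 0. In the single cells the library labelled +/+ held 1 UMI (unique molecular identifier, a count of RNA molecules) of Hand2os1 and the library labelled F/F held 9, which goes against the labels at very low depth, so directions between the single-cell libraries rest on the labels alone. Hand2 itself stood at 49.8 CPM (UMIs scaled to the total UMIs of the cells counted) in the library labelled +/+ and 78.5 in the library labelled F/F. The libraries held 38302756 UMIs over 2563 barcodes and 51432292 UMIs over 3469 barcodes, in that order, and shared 18 barcodes. In the bulk table the summed values ran from 334194 to 586795 FPKM a library, and read depth was unknown.

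Cells fell into 17 clusters, which were found without the 9 factors among the genes used and named from marker lists. Cluster 13 (139 cells, led by Emcn, Tm4sf1 and Plvap) was endothelial and endocardial-like. Cluster 4 (321 cells) was cushion endocardium-like, with 11 of 11 endothelial markers and 5 of 6 cushion endocardium markers above the other cells, although the neuronal gene Stmn2 led it. Clusters 5 (563 cells) and 6 (402 cells) were cushion mesenchyme-like, led beside the factors by Hapln1 and Cthrc1 in cluster 5 and by Inhba, Postn and Tgfbi in cluster 6. Cluster 15 (160 cells, led by Rgs5 and Eln) and cluster 12 (261 cells, led by Rspo3 and Bmp4) met no name. The mesenchyme-like class held 457 cells (18.3%) of the library labelled +/+ and 508 (15.1%) of the library labelled F/F, and the cushion endocardium-like class 132 (5.27%) and 189 (5.61%).

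Twist1, Snai1, Snai2, Msx1, Sox9 and Prrx1 each had their highest level in a mesenchyme-like cluster, whereas Msx2 was highest in a cardiomyocyte-like cluster, Zeb1 was spread over most non-blood clusters and Zeb2 was highest in cluster 0, a mix of macrophage and megakaryocyte markers. In cluster 0 (152 cells) 8 of 8 macrophage markers and 6 of 6 megakaryocyte markers lay above the other cells; their sums were 1980 and 3880 CPM in the library labelled +/+ and 3467 and 4428 in the library labelled F/F, and 3 other settings of the clustering and filters gave separate macrophage-like and megakaryocyte-like classes. Levels below are CPM of a cluster with both libraries summed and are compared between clusters for 1 gene at a time, since they are not corrected for gene length.

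**Figure D1:**
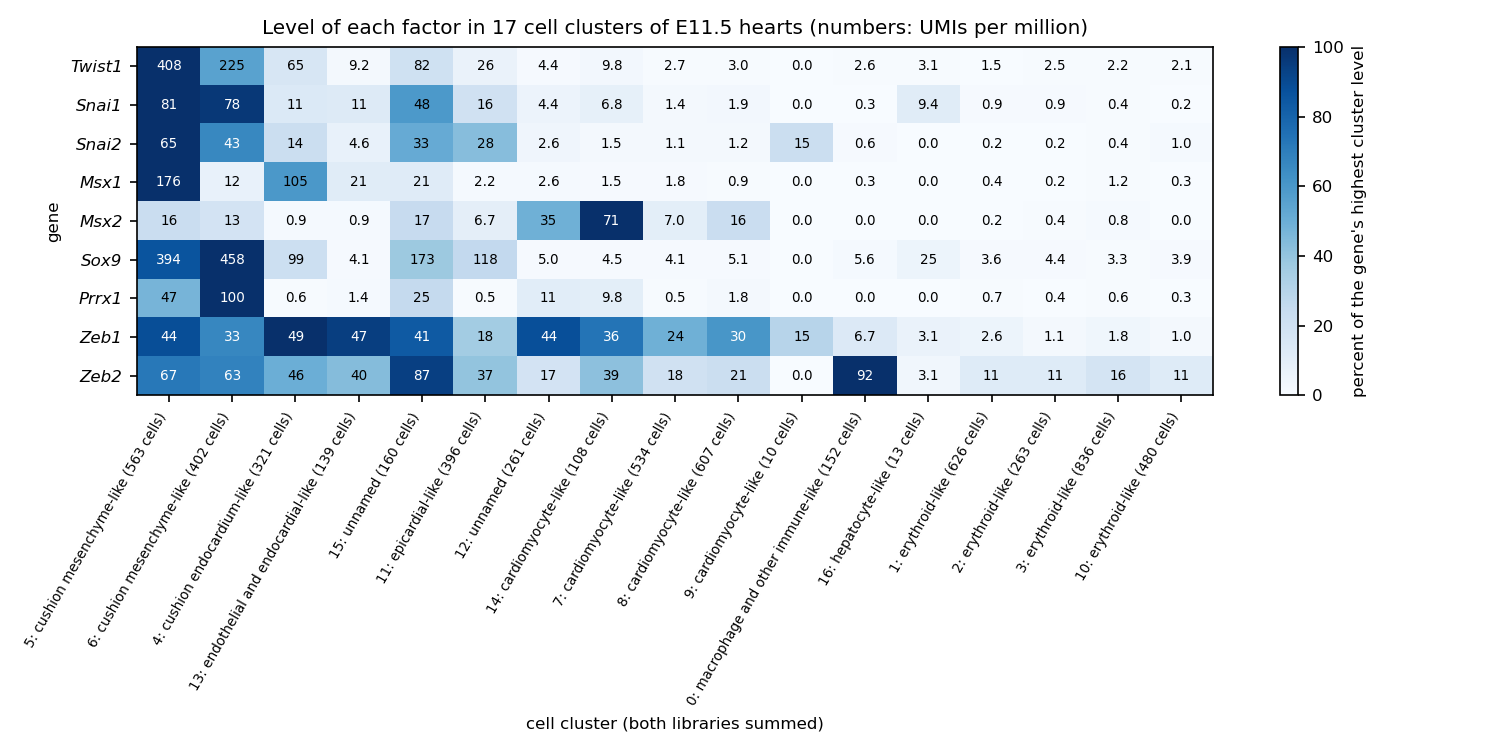
Level of each factor (rows) in the 17 cell clusters of E11.5 hearts (columns, with cell numbers), both libraries summed; numbers are CPM and shading is the percent of that gene's highest cluster. Twist1, Snai1, Snai2 and Sox9 are dark in clusters 5 and 6, Msx1 in clusters 5 and 4, Msx2 in cluster 14, and Zeb1 is dark across endothelial, mesenchymal and several cardiac clusters.

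Twist1 stood at 9.15 in endothelial-like cluster 13, 65.1 in cushion endocardium-like cluster 4, 225 in mesenchyme-like cluster 6 and 408 (95% interval 393 to 422) in mesenchyme-like cluster 5. It thus lay above the level of cluster 13 in cluster 4, whose cells carried the endothelial markers. In the library labelled +/+ alone, cluster 4 was 6.82-fold above cluster 13 and cluster 5 was 5.99-fold above cluster 4. The unnamed cluster 15 held 81.8, close to cluster 4, whose interval it overlapped.

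The Snail genes were not tested against each other, and their log2 ratios of cluster 4 over cluster 13 had overlapping intervals in both libraries. Those of Snai1 were 0.63 (-0.51 to 1.87) in the library labelled +/+ and -0.35 (-1.46 to 0.80) in the library labelled F/F. Snai1 was 10.5 in cluster 13 and 11.4 in cluster 4, with overlapping intervals, and then 80.9 and 78.3 in clusters 5 and 6. Snai2 was 4.58 in cluster 13, 14.5 in cluster 4, 64.9 in cluster 5 and 42.9 in cluster 6. Snai1 thus differed beyond counting error between cluster 4 and the mesenchyme-like clusters and not between clusters 13 and 4, while Snai2 was 7.74-fold higher in cluster 4 than in cluster 13 in the library labelled +/+, there from 22 and 2 UMIs (log2 ratio 2.95, 95% interval 0.93 to 6.09), and 2.06-fold higher in the library labelled F/F, with an interval that included 0 (1.04, -0.12 to 2.38). Snai2 was also found in epicardial-like cluster 11, at 28.1.

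The 2 Msx genes were highest in different clusters. Msx1 was 20.6 in cluster 13, 105 in cluster 4 and 176 in cluster 5, but only 12.5 in mesenchyme-like cluster 6. Msx2 was at 0.92 and 0.85 in clusters 13 and 4, 16.3 and 12.8 in clusters 5 and 6, and 71.2 in cluster 14, a cardiomyocyte-like cluster led by Shox2, a factor of the sinus node. Cluster 12 followed with 35.0. Across the 17 clusters the Pearson correlation of log2(level + 10) of the pair was 0.11, a description over clusters that share the same 2 libraries.

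Sox9 was 4.12 in cluster 13, 99.5 in cluster 4, 394 in cluster 5 and 458 in cluster 6. Unlike Twist1 it was lower in cluster 5 than in cluster 6, by -0.13 (-0.24 to -0.024) on the log2 scale in the library labelled +/+ and -0.29 (-0.39 to -0.18) in the library labelled F/F. The library labelled +/+ alone gave an 18.6-fold difference between clusters 4 and 13. It was also at 173 in cluster 15 and 118 in the epicardial-like cluster. Prrx1 was the factor most restricted to the mesenchyme-like side: it stood at 1.37 in cluster 13 and 0.57 in cluster 4, from 3 and 2 UMIs, and at 47.1 and 99.9 in clusters 5 and 6.

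Zeb1 and Zeb2 differed from each other between endocardium and mesenchyme. Zeb1 was 46.7, 49.4, 43.7 and 33.0 in clusters 13, 4, 5 and 6, and 43.6 in cluster 12. Zeb2 was 40.3, 46.0, 66.5 and 62.9 in the same 4 clusters and reached 92.4 in cluster 0 and 87.0 in cluster 15. Cluster 0 was the lower of these in the library labelled +/+ (88.4 against 106) and the higher in the library labelled F/F (97.3 against 67.8). Zeb2 was higher in the mesenchyme-like clusters than in cluster 4 beyond counting error in both libraries. The log2 ratio of cluster 5 over cluster 4 was 0.61 (0.21 to 1.04) in the library labelled +/+ and 0.46 (0.12 to 0.81) in the library labelled F/F, and that of cluster 6 over cluster 4 was 0.53 (0.12 to 0.96) and 0.36 (0.0042 to 0.73). The intervals of Zeb1 overlapped among clusters 13, 4 and 5, and Zeb1 was lower in cluster 6 than in cluster 4 in the library labelled F/F (-0.69, -1.09 to -0.29), with an interval that included 0 in the other library (-0.43, -0.89 to 0.053).

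The 2 mesenchyme-like clusters differed most in Msx1, Prrx1 and Twist1, and in the same direction in both libraries. In the library labelled +/+ Msx1 was 203 in cluster 5 and 17.3 in cluster 6, a difference of 11.7-fold, and in the library labelled F/F 156 and 7.86, or 19.8-fold. Twist1 was 1.89-fold and 1.85-fold higher in cluster 5 in the 2 libraries. Prrx1 went the other way, 2.20-fold and 2.03-fold higher in cluster 6. Snai1, Zeb2 and Msx2 differed by intervals that included 0 in both libraries.

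The proximal promoters of the factors were read from RefSeq (GRCm38.p6, the 250 bases before the annotated start), since Snail and Zeb proteins bind the E-box CACCTG. Of the 9 genes 6 had an entry, and 2 of those 6, Snai1 and Msx1, held CACCTG or its reverse complement CAGGTG; over all 32851 promoter windows of that length 17.2% did. The wider E-box CANNTG, the letters bound by helix-loop-helix proteins such as Twist1, was in 66.2% of all windows and in those of 3 of the 6 factors (Snai1, Msx1 and Msx2), and in none of those of Twist1, Prrx1 and Zeb2. Twist1 is shown because it differed most between the libraries, and Snai1 and Msx1 because they hold the hexamer, which is in capitals and begins at positions -126 and -210 counted from the start; each is written 5′ to 3′ on the gene's strand. A match is a run of letters and not an observed binding site.
Twist1, chr12:33957421-33957670, plus strand: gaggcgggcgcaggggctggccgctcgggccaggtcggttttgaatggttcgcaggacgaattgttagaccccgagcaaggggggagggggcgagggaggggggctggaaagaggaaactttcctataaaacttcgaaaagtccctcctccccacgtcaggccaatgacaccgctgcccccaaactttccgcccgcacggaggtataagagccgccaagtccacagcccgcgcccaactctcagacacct
Snai1, chr2:167537945-167538194, plus strand: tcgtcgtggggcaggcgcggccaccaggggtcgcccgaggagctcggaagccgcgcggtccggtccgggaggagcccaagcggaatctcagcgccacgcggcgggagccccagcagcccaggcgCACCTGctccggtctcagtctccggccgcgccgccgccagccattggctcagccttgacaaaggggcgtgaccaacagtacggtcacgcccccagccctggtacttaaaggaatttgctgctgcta
Msx1, chr5:37824586-37824835, minus strand: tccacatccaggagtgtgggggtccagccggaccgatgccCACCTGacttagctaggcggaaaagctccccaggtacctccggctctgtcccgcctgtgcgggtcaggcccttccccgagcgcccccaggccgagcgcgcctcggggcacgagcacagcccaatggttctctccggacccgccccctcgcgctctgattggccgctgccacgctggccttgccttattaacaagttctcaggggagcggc

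For each factor the 3 genes whose cluster pattern was most like its own were taken among 10671 genes with at least 200 UMIs, by the same correlation over 17 clusters and with no test. Twist1 was most like Pde1a (r = 0.97), a cyclic-nucleotide phosphodiesterase, and then Rgma and Col9a3. Sox9 was most like Twist1 itself (0.95), and Snai1 correlated with Twist1 at 0.95 and with Snai2 at 0.88. Msx2 was most like Bmp2 (0.95), the BMP ligand of the atrioventricular canal. Prrx1 was most like Robo2 (0.95), and Msx1 was most like Sncaip (0.93). Zeb1 and Zeb2 correlated with each other at 0.55, and their nearest genes were Airn (0.98) and Tceanc2 (0.94).

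Between the 2 single-cell libraries, Twist1 was the factor with the lowest ratio in both cushion classes, and it was lower in the library labelled F/F in clusters 4, 5 and 6 alike. In the mesenchyme-like class it stood at 426 CPM in the library labelled +/+ and 238 in the library labelled F/F, 1.79-fold lower, a log2 ratio of -0.84 (95% interval -0.93 to -0.75). It was the 62nd lowest of 8318 genes with at least 100 UMIs in that class. It was as large within each cluster: 551 against 297 in cluster 5 (-0.89, -0.997 to -0.79) and 292 against 160 in cluster 6 (-0.86, -1.02 to -0.71). In the cushion endocardium-like class it was 91.9 against 48.0 (-0.94, -1.33 to -0.55), and over all cells 83.0 against 42.6 (-0.96, -1.04 to -0.88).

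Past a 1.5-fold difference, 1 of the 9 factors in the mesenchyme-like class was lower in the library labelled F/F (Twist1), where 2.9% of all genes were lower by that much, and 0 were higher, where 0.745% of all genes were higher. In the cushion endocardium-like class 5 factors had at least 100 UMIs, of which 1 (Twist1) was lower and 0 were higher, against 3.26% and 1.46% of 4177 genes. The median log2 ratio of the factors was -0.15 in mesenchyme-like cells beside -0.03 over all genes there, and -0.03 beside 0.02 in cushion endocardium-like cells.

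**Figure D2:**
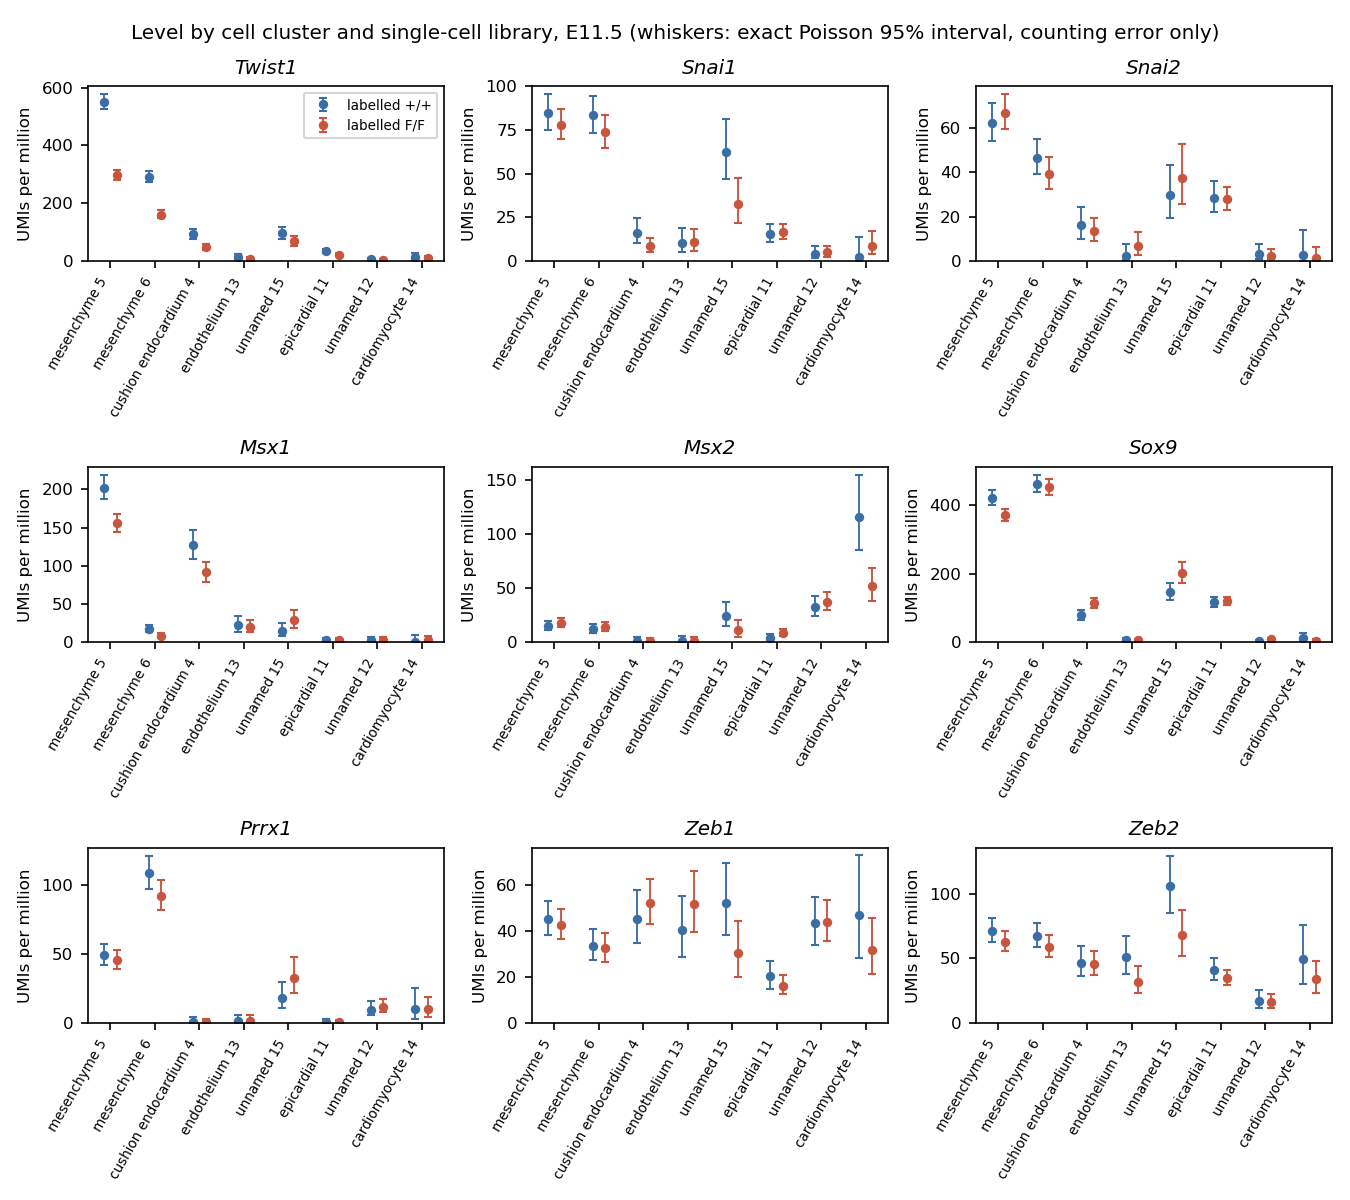
CPM of each factor in 8 clusters (horizontal axis) for the library labelled +/+ (blue) and the library labelled F/F (red); whiskers are exact Poisson 95% intervals and cover counting error only. The Twist1 intervals of the 2 libraries lie apart in clusters 5, 6 and 4, with the red points lower, and most other pairs of points overlap.

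The other 8 factors differed less in the mesenchyme-like class, from -0.29 to 0.27 on the log2 scale. Msx1 was 113 against 92.2 (-0.29, -0.45 to -0.14), Prrx1 77.6 against 65.5 (-0.25, -0.43 to -0.06) and Sox9 442 against 406 (-0.12, -0.20 to -0.05), each lower in the library labelled F/F by more than counting error. Snai1 (84.1 against 76.0), Snai2 (54.7 against 55.1), Msx2 (13.3 against 15.9), Zeb1 (39.6 against 38.2) and Zeb2 (69.4 against 61.0) had intervals that included 0. Within the class, Msx1 was 17.3 against 7.86 in cluster 6, from 53 and 25 UMIs (-1.14, -1.89 to -0.43), and 203 against 156 in cluster 5. In the cushion endocardium-like class Msx1 was again lower, 127 against 91.3 (-0.47, -0.78 to -0.17), and Sox9 was higher, 77.3 against 114 (0.56, 0.22 to 0.90). Sox9 passed 1.5-fold there under 4 other settings of the clustering and filters (0.62 to 0.69). It was thus lower in the mesenchyme-like cells and higher in the cushion endocardium-like cells of the same library.

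Outside the cushions, Twist1 was also lower in the library labelled F/F in the epicardial-like cluster (33.7 against 21.8, -0.63, -1.09 to -0.17), and in cluster 15 its interval touched 0 (95.5 against 67.8, -0.49, -1.003 to 0.0052). In erythroid-like cells, which should lack it, it was at 2.24 and 1.74. Msx2 in the Shox2-led cluster 14 was 116 against 51.4 (-1.17, -1.79 to -0.56), from 47 UMIs in each library. Their total was below the UMI minimum used above for counting genes. Msx2 went the other way in cardiomyocyte-like cluster 8 (12.4 against 18.2, 0.55, 0.0097 to 1.11). In cardiomyocyte-like cluster 7 its interval included 0 (7.75 against 6.29, -0.30, -1.10 to 0.49). Over all cardiomyocyte-like cells Msx2 was 15.5 against 16.3 (0.075, -0.27 to 0.42). Zeb2 in cluster 15 was 106 against 67.8 (-0.64, -1.14 to -0.15), and Sox9 was higher there (145 against 202, 0.47, 0.14 to 0.82). Snai1 in cluster 15 was 62.5 against 32.7, from 55 and 28 UMIs (-0.93, -1.65 to -0.25). Zeb1 in the same cluster was 52.3 against 30.4, from 46 and 26 UMIs (-0.78, -1.54 to -0.059). The totals of Snai1 and Zeb1 in cluster 15 were also below that minimum. Zeb1 was higher in the library labelled F/F in the Nppa-led cardiomyocyte-like cluster 7 (17.5 against 30.5, 0.80, 0.37 to 1.24), where 6631 of 6643 genes had a lower ratio. Sox9 was higher in erythroid-like cells (2.60 against 4.57, 0.81, 0.23 to 1.42), where 298 of 5916 genes were higher by at least 1.5-fold and 53 lower. Zeb1 over all cardiomyocyte-like cells differed by 0.18.

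Markers of other cells also differed between the libraries in these classes. The 12 cardiomyocyte markers, all detected, summed to 792 CPM in the mesenchyme-like cells of the library labelled +/+ and 1328 in the library labelled F/F, to 569 and 1233 in cushion endocardium-like cells and to 453 and 988 in erythroid-like cells. The 11 cushion mesenchyme markers summed to 3825 and 3351 in mesenchyme-like cells and to 1995 and 1866 in cushion endocardium-like cells, and the 6 pharyngeal arch markers to 8.20 and 9.72 in mesenchyme-like cells. The part of these differences in the Twist1 difference was not tested.

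The share of cells with at least 1 Twist1 UMI was compared after each cell was thinned to 5000 UMIs, which left out 20 and 16 mesenchyme-like cells. It was 80.3% (exact binomial 95% interval 76.3 to 83.9) of 437 mesenchyme-like cells of the library labelled +/+ and 61.8% (57.3 to 66.1) of 492 of the library labelled F/F; without thinning it was 93.2% and 85.6%, at median depths of 13641 and 14689 UMIs. In cushion endocardium-like cells it was 29.8% (21.8 to 38.7) of 121 and 19.0% (13.4 to 25.6) of 174, and unthinned 33.3% and 31.2%. In erythroid-like cells, at median depths of 10909 and 11652 UMIs, the thinned shares were 0.57% and 0.85%. The Twist1 intervals lay apart in the mesenchyme-like class and overlapped in the cushion endocardium-like class.

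For the other 8 factors the thinned shares of mesenchyme-like cells had overlapping intervals between the libraries: Zeb1 was met in 20.4% and 15.2%, Zeb2 in 27.0% and 24.4%, Msx2 in 5.95% and 6.30%, Sox9 in 78.7% and 77.2%, Snai1 in 29.1% and 29.1%, Prrx1 in 29.1% and 27.0%, Msx1 in 26.1% and 26.6% and Snai2 in 21.7% and 22.8%. Snai1 and Snai2 were met together in 22 of 437 and 31 of 492 thinned mesenchyme-like cells, so at this depth most cells with a UMI of one had none of the other. Twist1 and Sox9 were met together in 281 of 437 and 241 of 492. Msx1 and Msx2 were met together in 14 of 437 and 16 of 492, and Msx2 without Msx1 in 12 and 15. A mesenchyme-like cell held on average 3.18 and 2.90 of the 9 factors, a cushion endocardium-like cell 1.44 and 1.17, an endothelial-like cell 0.67 and 0.64 and an erythroid-like cell 0.10 and 0.12. Among the classes named here, the mean number was thus highest in mesenchyme-like cells and next highest in cushion endocardium-like cells, in both libraries. No order of cells along the transition was computed.

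**Figure D3:**
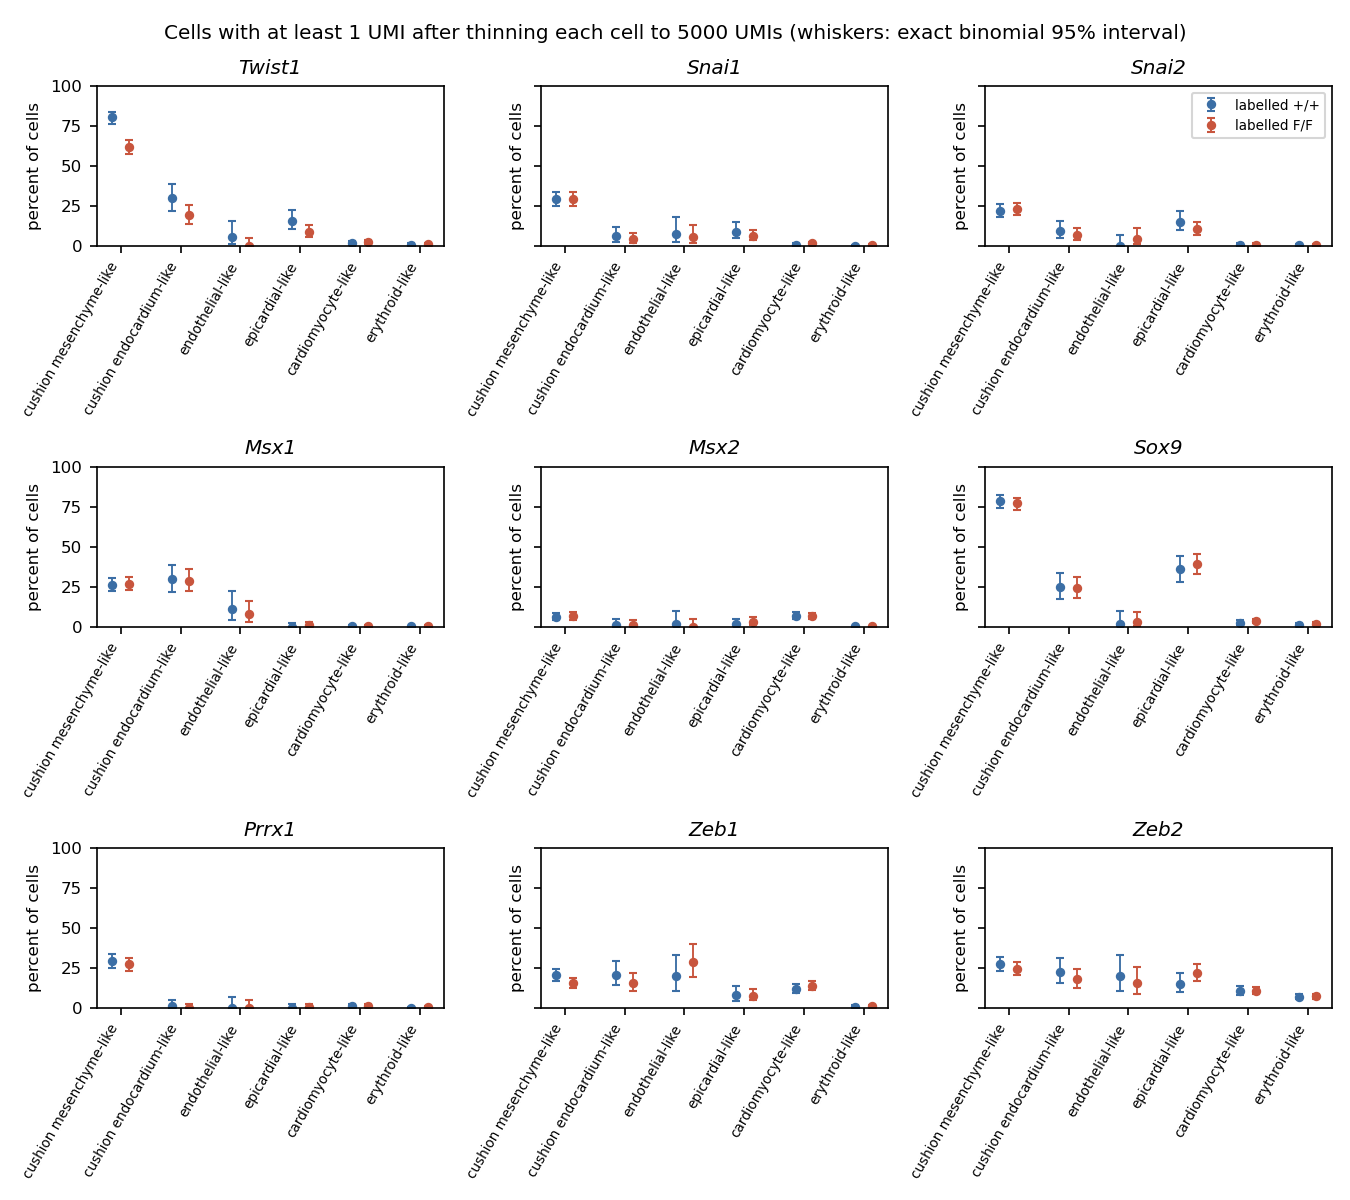
Percent of cells with at least 1 UMI of each factor after thinning to 5000 UMIs a cell, in 6 cell classes, for the library labelled +/+ (blue) and labelled F/F (red); whiskers are exact binomial 95% intervals. Twist1 in mesenchyme-like cells is 80.3% and 61.8%, and Sox9 is near 78% in both.

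Genes of the surrounding pathway were read in the same cells from lists of ligands, receptors, other transcription factors, endothelial junctions and matrix. Of 7 cushion signals with at least 100 UMIs in the mesenchyme-like class 1 was lower past 1.5-fold, the TGFβ ligand Tgfb1 (36.4 against 21.3, log2 ratio -0.77, -1.07 to -0.47), and 0 were higher. None of 11 receptors and transducers, 10 other cushion transcription factors, 2 junction genes, 12 matrix genes and 2 relatives of the factors passed in either direction. Tgfb1 was lower in other cells of the library labelled F/F as well, with log2 ratios of -0.76 (-1.06 to -0.46) in the erythroid-like class, -0.84 (-1.29 to -0.40) in the endothelial-like class, -0.53 (-0.76 to -0.30) in cluster 0 and -1.15 (-2.07 to -0.25) among epicardial-like cells. The nearest relatives stood at 46.2 against 38.1 (Twist2) and 194 against 174 (Prrx2), and the median of the 12 matrix genes was -0.20. In the cushion endocardium-like class Tgfb1 (125 against 68.0, -0.88, -1.21 to -0.56) and the hyaluronan synthase Has2 (53.9 against 31.7, -0.77, -1.27 to -0.27) were lower and the mesenchymal cadherin Cdh11 was higher (20.4 against 37.3, 0.87, 0.23 to 1.54), among 4 signals and 9 matrix genes.

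The bulk hearts of E11.5 gave the same genotype question with replicates, against F/+ controls. Twist1 was at 27.51, 90.24 and 29.85 FPKM in F/+ and 34.53, 20.15 and 28.72 in F/F. Replicate 2 of F/+ stood far above the rest, and the groups overlapped. On log2(FPKM + 1) the difference was -0.62 ± 0.40 (SE), with an adjusted p of 0.999 by limma, and without that library it was -0.075 (adjusted p = 0.999). In bulk tissue fewer cells of a type and less RNA per cell cannot be told apart.

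The same replicate 2 of F/+ was high in Msx1 (7.07, 17 and 4.69 FPKM in F/+, against 6.58, 7.15 and 5.73 in F/F), Msx2 (8.05, 24.23 and 4.45, against 8.89, 11.97 and 10.54) and Prrx1 (2.53, 17.62 and 0.82, against 1.13, 2.94 and 1.09). Relative to the mean of the other F/+ libraries it was 3.15-fold higher for Twist1, 2.89-fold for Msx1, 3.88-fold for Msx2 and 10.5-fold for Prrx1, but 0.98-fold for Sox9, 1.06-fold for Zeb1 and 0.87-fold for Zeb2. Thus 4 of the 9 factors stood apart in 1 library, and the share of all genes that did so was not counted. Its 6 pharyngeal arch markers summed to 11.81 FPKM, with 4 of them at 1 FPKM or more, beside 7.99 and 1.98 in the other F/+ libraries and 0.8 to 2.12 in F/F, and its 6 skeletal muscle and somite markers to 10.24, beside 2.99 and 1.21 in F/+ and 0.93 to 1.74 in F/F. The 6 foregut and lung markers were highest in F/+ replicate 1 (20.67 FPKM), beside 6.64 and 2.09 in the other F/+ libraries and 0.04 to 1.89 in F/F. The part of tissue next to the heart in these values was not tested. Without F/+ replicate 2 the difference was 0.14 for Msx1 and 0.036 for Prrx1, where all 3 against 3 gave -0.33 ± 0.38 and -0.92 ± 0.71.

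The remaining factors also overlapped between genotypes at E11.5. Snai1 was at 22.92, 22.63 and 11.75 FPKM in F/+ and 14.02, 14.88 and 10.34 in F/F (-0.47 ± 0.28), and Snai2 at 6.5, 6.63 and 2.85 and at 4.82, 4.43 and 3.66 (-0.19 ± 0.33). Sox9 averaged 19.2 ± 2.85 FPKM (SD, n = 3) in F/+ and 20.1 ± 2.64 in F/F, Zeb1 12.1 ± 2.13 and 11.9 ± 3.15, and Zeb2 5.71 ± 0.447 and 5.27 ± 0.279. Limma called 0 of the 9 factors at an adjusted p below 0.05, where it called 0.0087% of 11491 genes, and 0 of 9 also had an unadjusted p below 0.05. The groups did not overlap for 0 of 9 factors, where they did not for 9.23% of genes. The median of the factors was -0.19 beside 0.02 over all genes, and 7 of 9 lay below 0. That tally moved with single libraries: without F/+ replicate 2 the median was -0.0077 and 5 of 9 lay below 0, and without F/+ replicate 3 it was -0.52 and 9 of 9 did. F/+ replicate 3 had the highest erythroid and epicardial marker sums of E11.5 (136226 and 404.69 FPKM). The cardiomyocyte markers summed to 15102 to 17540 FPKM in F/+ and 18520 to 21335 in F/F. The endothelial markers summed to 319 to 340 and 365 to 391, while the cushion mesenchyme sums overlapped (546 to 668 and 500 to 578). The part of these differences in the factors was not tested.

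**Figure D4:**
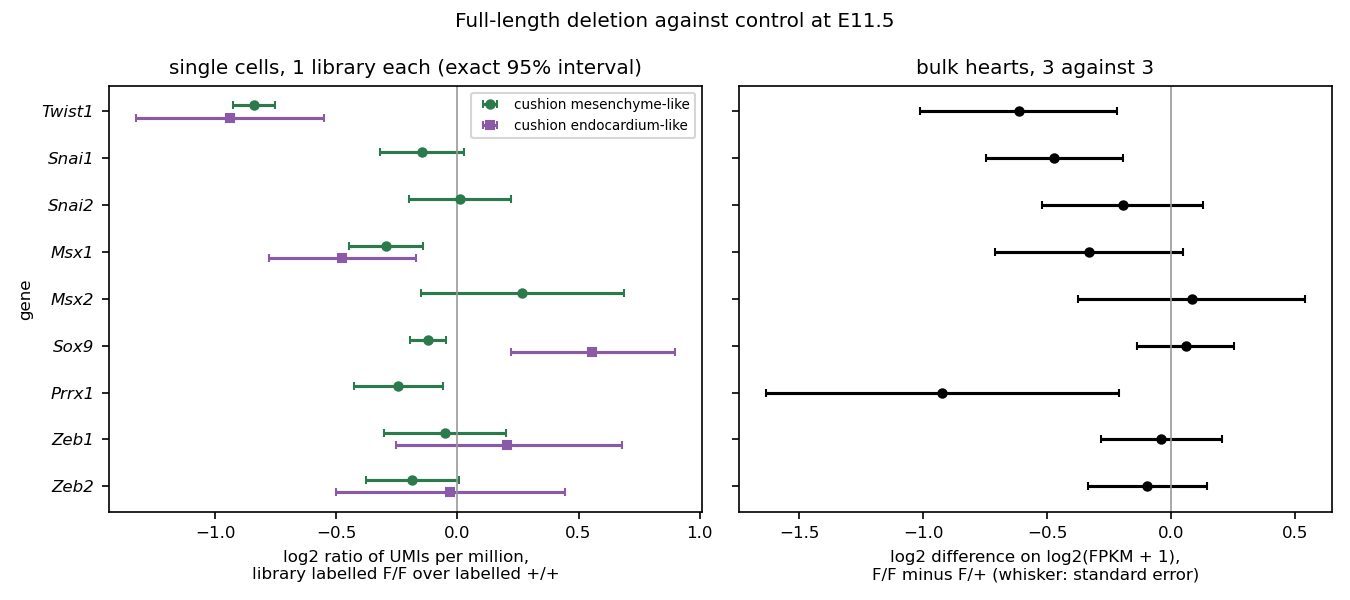
Left, log2 ratio of CPM of the library labelled F/F over the library labelled +/+ in cushion mesenchyme-like (green) and cushion endocardium-like (purple) cells, for factors with at least 100 UMIs, with exact 95% counting intervals; right, the limma difference F/F minus F/+ in the bulk E11.5 hearts with its standard error. Twist1 lies near -0.84 and -0.94 on the left, and on the right it is -0.62 with a standard error of 0.40, a value that is -0.075 without F/+ replicate 2.

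Per length, the order of levels at E11.5 was read in F/F. Replicate 2 of F/F had the highest summed value of all libraries (586795 FPKM), and its 6 hepatocyte markers summed to 465.73 FPKM, beside 11.42 and 44.54 in the other F/F libraries and 224.09, 0.6 and 2.26 in F/+. Its 6 megakaryocyte markers summed to 227.19, beside 82.61 to 103.61 in the other E11.5 libraries. Its Prrx1 was 2.65-fold above the mean of the other F/F libraries and its Twist1 0.64-fold, and the part of liver tissue in these values was not tested. Twist1 (27.8 ± 7.23 FPKM, SD, n = 3) and Sox9 (20.1 ± 2.64) came first, followed by Snai1 (13.1 ± 2.41), Zeb1 (11.9 ± 3.15) and Msx2 (10.5 ± 1.54), whose ranges overlapped. Msx1 (6.49 ± 0.715), Zeb2 (5.27 ± 0.279) and Snai2 (4.30 ± 0.590) came next, and Prrx1 was lowest (1.72 ± 1.06).

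At E16.5 the ventricles of the 2 genotypes were close. Twist1 was at 2.3, 3.34 and 1.53 FPKM in F/+ and 1.73, 2.01 and 2.42 in F/F, and Snai2, the factor with the highest difference, at 5.87, 9.5 and 10.36 in F/+ and 11.18, 12.23 and 9.46 in F/F. Differences over the 9 factors ran from -0.12 (Twist1) to 0.35 ± 0.20 (Snai2). Limma called 0 of 9 (0 at an unadjusted p below 0.05), where it called 0.00935% of 10699 genes. The groups did not overlap for 0 of 9 factors, where they did not for 6.78% of genes. The difference between the genotype effects of the 2 stages was called for 0 of 9 factors (0 at an unadjusted p below 0.05), where 0.00875% of 11423 genes were called, and was largest for Prrx1 at 1.11 ± 0.86, which became 0.15 without F/+ E11.5 replicate 2. Of the 6 pathway lists, 0 genes were called between genotypes at E11.5, E16.5 or 8 weeks.

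In 8-week cardiomyocytes 6 factors passed the minimum mean of 1 FPKM, and Twist1, Msx2 and Sox9 did not. Limma called 0 of those 6 in D/D (6 libraries) against the 7 controls (+/+ and D/+), and 0 at an unadjusted p below 0.05; it called 0% of 10249 genes, 175 of which had an unadjusted p below 0.05. Differences ran from -0.26 ± 0.18 for Snai2 to 0.14 ± 0.29 for Msx1. Prrx1 and Zeb1 had the highest levels of the factors here. Prrx1 ran from 5.27 to 9.52 FPKM in +/+ (median 7.95), 7.76 and 6.19 in D/+ and 4.51 to 9.12 in D/D (median 7.22). Zeb1 ran from 5.93 to 8.74 in +/+ and from 5.75 to 9.04 in D/D, and Msx1 from 1.62 to 4.68 in +/+ and from 1.53 to 9.58 in D/D, and without D/D replicate 5 the Msx1 difference was -0.14. The groups overlapped for all 3. Without the library labelled +/+ replicate 5, in which Hand2os1 was listed at 0, the Msx1 difference was 0.25 and 0 of 6 factors were called. The 13 libraries of this age were also divided into 2 sets by the number of genes whose values did not overlap between the sets. The division into 9 and 4 libraries separated the most genes (1115), and its smaller set held 1 +/+ and 3 D/D libraries. Of the divisions with all 3 genotypes on both sides, that into 5 and 8 libraries separated the most (862). With a term for either division 0 of 6 factors were called.

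From E11.5 to E16.5 Twist1, Msx1, Msx2 and Sox9 fell in both genotypes. Whole heart was set against ventricle, so stage and tissue cannot be told apart. In F/+ the erythroid markers summed to 39241 to 136226 FPKM at E11.5 and 131 to 300 at E16.5. The epicardial markers summed to 251 to 405 and 70.2 to 85.2, and the endothelial markers to 319 to 340 and 309 to 350. The part of other cell types in the factors' differences was not tested. Twist1 lay between 27.51 and 90.24 FPKM at E11.5 and between 1.53 and 3.34 at E16.5 in F/+ (log2 difference -3.70 ± 0.37, adjusted p = 5.55e-06), and between 20.15 and 34.53 and between 1.73 and 2.42 in F/F (-3.21, adjusted p = 1.74e-05). Msx2 fell by 2.38 in F/+ (adjusted p = 0.000322) and 2.46 in F/F (0.000265), Msx1 by 1.59 (0.00119) and 1.30 (0.00453) and Sox9 by 0.74 (0.00145) and 0.70 (0.00211), all by limma. The stages did not overlap for these 4 factors in either genotype, and the share of all genes without overlap between stages was not counted.

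In F/+ 4 of 9 factors were called lower at E16.5 and 0 higher, where 31.2% of genes were lower, 18.3% higher and 49.5% either. In F/F 4 were lower and 3 higher, where 31.2% were lower, 18.8% higher and 50% either. The 3 that rose in F/F were Snai2 (1.17 ± 0.27, adjusted p = 0.00303), Prrx1 (1.72 ± 0.61, 0.0322) and Zeb1 (0.59 ± 0.19, 0.0220), and Zeb1 did so with overlapping groups and lost its call without F/F E11.5 replicate 2 or 3 or without F/F E16.5 replicate 1 or 3 (adjusted p from 0.0604 to 0.0890). In F/+ the same genes gave 0.63 for Snai2 (adjusted p = 0.0681), 0.61 for Prrx1 (0.428) and 0.47 for Zeb1 (0.0567). Prrx1 lost its call in F/F without F/F E11.5 replicate 1 or 3 or without any 1 of the F/F E16.5 replicates (adjusted p from 0.0524 to 0.0966), and in F/+ it gave 1.57 (adjusted p = 0.00351) without F/+ E11.5 replicate 2. In F/+ Snai2 was called without F/+ E11.5 replicate 1 or 2 or F/+ E16.5 replicate 1 (0.79 to 0.85), Zeb1 without F/+ E11.5 replicate 1 (0.58, adjusted p = 0.0463) and Snai1 without F/+ E11.5 replicate 3 (-0.80, adjusted p = 0.00382). With all libraries Snai1 and Zeb2 were not called in either genotype. Scaling each library by median ratios moved the median of all genes from -0.18 to 0.0034 in F/+ and from -0.16 to 0.017 in F/F and the share of higher calls from 36.9% to 51% and from 37.7% to 51.5%; under it Snai2 (0.82) and Zeb1 (0.67) were also called in F/+ and Zeb2 (0.41) in F/F.

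Over the same stages the 11 cushion mesenchyme markers, mostly matrix genes, summed to 546 to 668 FPKM at E11.5 and 1269 to 1438 at E16.5 in F/+. The higher sum came from the fibrillar collagens Col1a1, Col1a2 and Col3a1, which summed to 349 to 484 FPKM at E11.5 and 1180 to 1349 at E16.5 and were all called higher. The other 8 markers, set apart after the values were seen, summed to 184 to 204 and 83.4 to 89.5, and limma called 6 of them lower in F/+ (Vcan, Hapln1, Fbln2, Pdgfra, Bgn and Papss2) and 0 higher. In F/F the collagens were likewise called higher and 5 of the other 8 lower. Of the pathway lists in F/+, 2 of 12 signals were higher and 6 lower, 3 of 12 receptors higher and 7 lower, 4 of 12 other transcription factors higher and 5 lower, 3 of 5 junction genes higher and 2 lower, and 3 of 11 matrix genes higher and 5 lower.

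**Figure D5:**
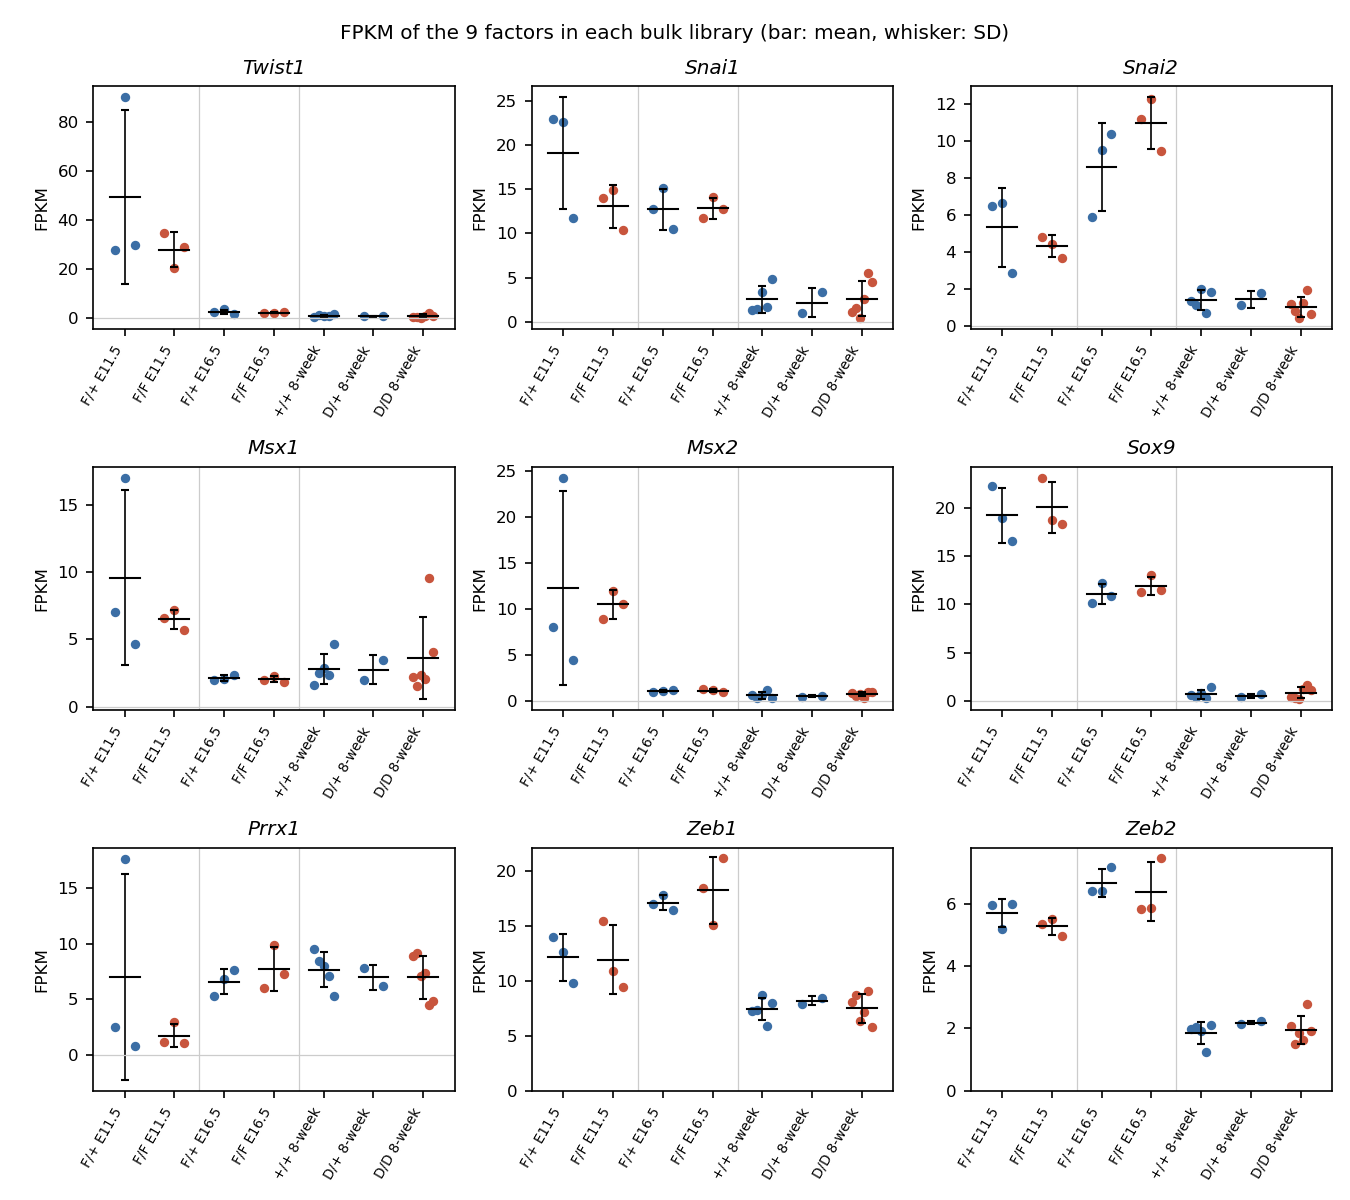
FPKM of each factor in each bulk library by stage and genotype (points; blue controls, red homozygous deletions), with the group mean (bar) and SD (whisker). Twist1 and Msx2 drop between E11.5 and E16.5, Sox9 and Snai1 are low in 8-week cardiomyocytes, Prrx1 is not, and 1 F/+ E11.5 library lies far above the others for Twist1, Msx1, Msx2 and Prrx1.

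From E16.5 F/+ ventricle to 8-week +/+ cardiomyocytes, where stage, tissue, isolation and genotype cannot be told apart, 6 of 8 tested factors were lower and 0 higher, where 44.9% of genes were lower, 24.9% higher and 69.8% either. Sox9 was at 10.13, 12.24 and 10.83 FPKM in the ventricles and 0.26 to 1.4 in the cardiomyocytes (-2.88, adjusted p = 2.65e-06 by limma). Snai1 (-2.05, 0.000247), Snai2 (-1.99, 5.35e-05), Zeb2 (-1.43, 2.42e-05), Zeb1 (-1.11, 7.65e-05) and Twist1 (-0.92, 0.00847) were also lower. Prrx1 (0.18, 0.417) and Msx1 (0.24, 0.367) were not called, and Prrx1 was called higher under median-ratio scaling (0.55, adjusted p = 0.0203), which moved the median of all genes from -0.34 to 0.0094 and the share of higher calls from 35.7% to 50.9%. The cushion mesenchyme markers summed to 87.5 to 166 FPKM in the +/+ cardiomyocytes.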

How the data were processed

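Bulk values were deposited by the authors as a table of values per gene, read here as FPKM. The unit is not stated in the sources used here and was inferred: over 10290 genes the log2 ratio of bulk value to UMIs had a slope of 0.0928 on log2 gene length, where counts would give 1. The slope sets the values apart from counts and not from other units scaled to length. CASAVA, TopHat, TopHat2 2.0.11 and mm9 are named for them per the submitters' processing notes, and Cell Ranger and mm10 for the single-cell library, which the authors deposited as a table of UMI counts. The counting step and any pooling are not given in the sources used here. Of 24525 bulk lines 769 shared 270 symbols, and each was used once.

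Bulk genes averaging 1 FPKM or more were fitted as log2(FPKM + 1) with limma 3.58.1 (R 4.3.3, trended prior, Benjamini-Hochberg over all tested genes, threshold 0.05), checked on simulated data. Where nothing says that libraries came from separate animals, p-values measure the spread between these libraries only. Same-numbered libraries did not deviate together in every pair, so the numbers were not used as pairs.

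Barcodes with fewer than 500 detected genes were dropped, the top 0.8% scrublet scores per 1000 barcodes were removed (52 and 96 cells), because its automatic threshold marked 3, and cells were clustered with scanpy 1.11.5 (2000 variable genes without the 9 factors, 30 components, 15 neighbours, Leiden resolution 1.0). If allowed, 8 of the 9 would have been among the variable genes. A cluster was named where at least 3 markers and most of a list led it and no other list had more of its top genes. Levels are CPM of summed counts with exact Poisson intervals, ratios have exact conditional intervals, all at 95%, and UMI intervals cover counting error only. Each library's column ending was matched to its label.

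The 9 factors were named whatever their values, and from pathway lists those past the threshold or nearest to the factors. The factors, lists and markers were chosen with earlier results of these data known. Alternatives were another pseudocount, no filter, median-ratio scaling, a replicate block, a Y-linked covariate, terms for library sets, each library left out, and other single-cell settings.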

Additional observations from a re-analysis of the deposited data

Results flagged for a closer look

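Exactly 2 values stood apart from the other libraries of their group. They came from 18 sets of values, the 9 factors in each of the +/+ (5 libraries) and D/D (6) groups of 8 weeks. About 1 in 20 sets would do so by chance, and the sets shared the same libraries, so they were not independent. Msx1 in D/D cardiomyocytes was highest in replicate 5, at 9.58 FPKM, where the other 5 of the 6 libraries ran from 1.53 to 4.05. The gap to the nearest library was 0.687 of the whole range. Zeb2 in +/+ cardiomyocytes was lowest in replicate 4, at 1.24 FPKM, where the other libraries ran from 1.9 to 2.1, and that gap was 0.767 of the range. D/D replicate 5 was also the highest of its group in Twist1 (1.84 FPKM), Snai1 (5.55), Snai2 (1.93), Msx2 (0.97), Sox9 (1.62), Zeb1 (9.04) and Zeb2 (2.77) and the lowest in Prrx1 (4.51). The same library held the highest sums of its group for endothelial markers (581.05 FPKM, the other D/D libraries at most 324.5), cushion mesenchyme markers (216.58, at most 149.78) and macrophage markers (39.96, at most 18.68), and the lowest for cardiomyocyte markers (45906.5, the others at least 49042.9). The part of other cell types in its Msx1 value was not tested.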

How the results depend on the processing

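Direction and call of Twist1 in the single cells were the same with the factors among the variable genes, at Leiden resolution 0.5, with at least 1000 genes a barcode and with doublets kept. They were also the same with haemoglobin and mitochondrial genes left out of the totals. Under each of the first 4 settings 2 factors rather than 1 passed 1.5-fold in cushion endocardium-like cells, Sox9 (0.62 to 0.69) being the second. At resolution 0.5 the cushion endocardium-like class held 459 cells, beside 321 at the main setting, and no endothelial-like class was left. The share of its cells with a Twist1 UMI was 21.7% and 13.1% in the libraries labelled +/+ and F/F. At the main setting without thinning, the cushion endocardium-like share was 31.2% in the library labelled F/F. The mesenchyme-like shares were then 93.2% and 85.6%. In bulk, counts of all called genes were small: with a replicate block 2 genes were called at E11.5, with a Y-linked covariate 2 at E11.5 and 3 at E16.5, with a pseudocount of 0.1 there were 2 at E16.5 and 2 for the difference of effects between stages, and without the filter 3 for that difference. Leaving out 1 library gave 0 to 2 genes at E16.5, 1 to 2 at E11.5 and 1 to 9 for the difference of effects; 0 of the factors were called in each of these. The replicate block reversed the Msx1 difference of D/D to -0.0092, changed Snai1 between stages in F/+ to called (-0.50, adjusted p = 0.0436), and left 0 factors called between genotypes; the numbers share no stated source. Msx1 of D/D was -0.15 with the sets of 4 and 9 libraries, added after seeing the data. Snai1 between stages in F/F became 0.19 under median-ratio scaling. Prrx1 in F/F lost its call without the filter (1.72, adjusted p = 0.0686). The cause of these changes was not tested. Leaving out 1 library reversed 14 differences of single factors, none of them called with all libraries, ended 9 calls, gave 6 and left 241 the same. The reversed ones ranged from -0.69 to 0.14 (Msx1), -0.41 to 0.70 (Msx2) and -1.64 to 0.036 (Prrx1) for genotype at E11.5, -0.32 to 0.073 for Twist1 at E16.5, -0.14 to 0.28 for Msx1 in D/D, -0.11 to 1.57 for Prrx1 between stages in F/+, -0.16 to 0.083 for Snai1 between stages in F/F and -0.69 to 0.41 for Msx2 in the difference of effects. Depth, unknown in the bulk table, limits the factors near 1 FPKM.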
